A study of Mus musculus with 4 samples.

Results

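Peaks on mitochondrial DNA, in a mitochondrial-like stretch of chromosome 1 and in a 45S rRNA stretch of chromosome 17 were described in 4 ChIP-exo peak lists of D3 cells, an established line of mouse embryonic stem cells. They were taken as every peak whose centre lay on mitochondrial DNA, in the 100 kb bin 24600001 to 24700000 of chromosome 1 or in the 100 kb bin 39800001 to 39900000 of chromosome 17 (mm10), which gave 380 of the 29255 peaks of the 4 lists. Of these, 206 were on mitochondrial DNA, 27 in the chromosome 1 bin and 147 in the chromosome 17 bin. The regions were chosen by the number of peaks they held in each library, so those numbers are given as a description and were not tested.

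ChIP-exo trims crosslinked DNA with an exonuclease up to the bound protein, so that each peak is narrow. The libraries were Halo-Sox2M (labelled M47G:F50:M51G, where no replacing residue is given for F50), Halo-Sox2D (Sox2 residues 1 to 120), Halo-Sox2, and endogenous Sox2, with 1 library each. Sox2 is an HMG-box transcription factor of pluripotent cells, and the M changes lie in its DNA-binding box, while Halo-Sox2D lacks the C-terminal activation region. The fusion proteins carry HaloTag, which forms a covalent bond with HaloLink resin and was used to isolate them, while an antibody was used for endogenous Sox2. Tag, resin and antibody therefore differ together between Halo-Sox2 and endogenous Sox2 and cannot be told apart. The sources used here do not say how the fusions were expressed or whether their cells still made endogenous Sox2, and neither input DNA nor resin alone was analysed here. The lists held 1711 peaks for Halo-Sox2M, 13833 for Halo-Sox2D, 6558 for Halo-Sox2 and 7153 for endogenous Sox2. They carry no read number or score, so depth is unknown and the strength of a peak cannot be read. Without replicates no test between libraries was possible. All intervals are 95% intervals for counting error, and they treat peaks as independent although neighbours may share reads.

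Mitochondrial DNA is a small circular genome kept in many copies per cell. It encodes both rRNAs of the mitochondrial ribosome, a set of tRNAs and core subunits of the respiratory chain and ATP synthase. A noncoding control region holds the promoters and a replication origin. Copies of mitochondrial sequence have also been inserted into the nuclear chromosomes during evolution, and short reads from an insertion and from mitochondrial DNA can be hard to assign. The 45S rRNA is the nucleolar precursor of the 18S, 5.8S and 28S rRNAs of cytosolic ribosomes. Its genes lie in long tandem arrays that are mostly missing from the assembled chromosomes, so that reads from many copies can gather on the few assembled ones.

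The antibody library and the resin libraries stood in opposite orders in these sequences. On mitochondrial DNA there were 15 peaks for Halo-Sox2M (exact Poisson interval 8.40 to 24.7), 90 for Halo-Sox2D (72.4 to 110.6), 98 for Halo-Sox2 (79.6 to 119.4) and only 3 for endogenous Sox2 (0.619 to 8.77). In the 45S rRNA bin the lists of Halo-Sox2M and Halo-Sox2 held 0 peaks, Halo-Sox2D had 23 (14.6 to 34.5) and endogenous Sox2 had 124 (103.1 to 147.8). The mitochondrial-like bin had 2 peaks of Halo-Sox2M, 6 of Halo-Sox2D, 19 of Halo-Sox2 and 0 of endogenous Sox2. Halo-Sox2D was thus the only library with peaks in all 3 regions. For each list with 0 peaks in the 45S rRNA bin the exact Poisson interval was 0 to 3.69, and the Halo-Sox2M list is short.

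**Figure D1:**
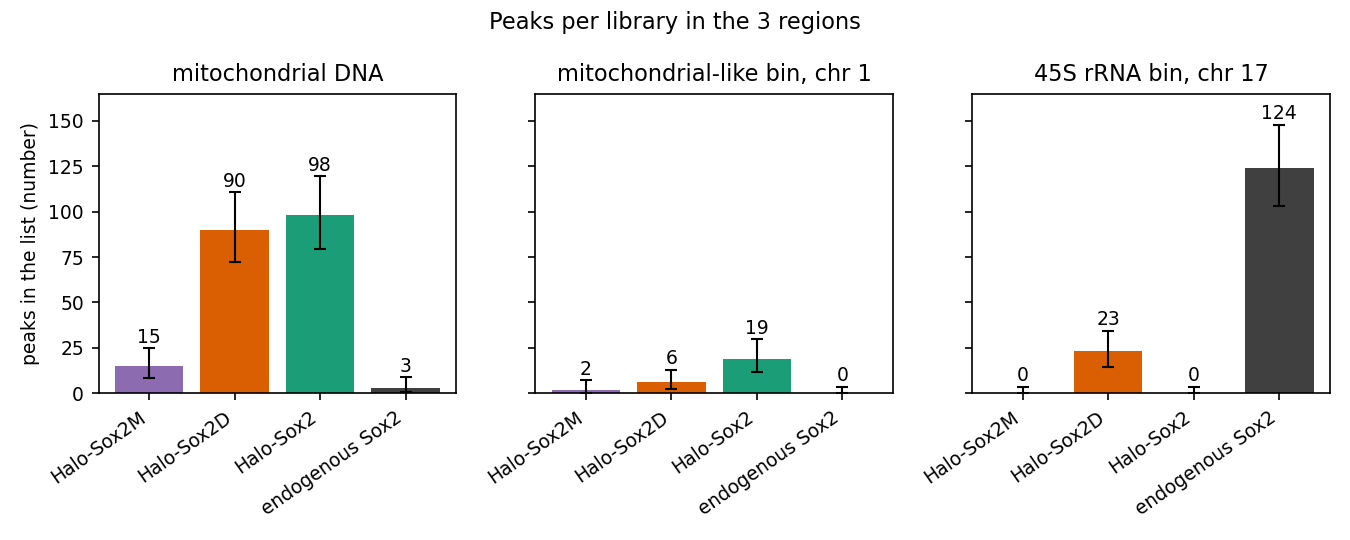
Number of peaks (y axis) of each library (x axis) in the 3 regions, with exact 95% Poisson intervals as error bars. The resin libraries hold 15 to 98 mitochondrial peaks and endogenous Sox2 holds 3, while endogenous Sox2 holds 124 peaks in the 45S rRNA bin against 23 for Halo-Sox2D and 0 for the other 2 resin libraries.

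Because the lists differ in length, the numbers were also read as shares of each list. Mitochondrial peaks made up 0.877% of the Halo-Sox2M list (Wilson interval 0.532 to 1.44%), 0.651% of the Halo-Sox2D list (0.530 to 0.799%), 1.49% of the Halo-Sox2 list (1.23 to 1.82%) and 0.0419% of the endogenous Sox2 list (0.0143 to 0.123%). Against the list without mitochondrial DNA, unplaced sequence and 100 kb bins with 15 or more peaks in any library, the numbers came to 1.57% for Halo-Sox2M and 1.68% for Halo-Sox2, which is closer together.

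Peaks of the 45S rRNA bin made up 0.166% of the Halo-Sox2D list (0.111 to 0.249%) and 1.73% of the endogenous Sox2 list (1.46 to 2.06%). The Wilson interval for 0 peaks reached 0.224% in the Halo-Sox2M list and 0.0585% in the Halo-Sox2 list. The Halo-Sox2M interval thus included the Halo-Sox2D share, and these 2 libraries were not set apart here. Of the rRNA-bin and mitochondrial peaks of a library combined, the rRNA bin held 0 of 15 for Halo-Sox2M, 23 of 113 for Halo-Sox2D (20.4%, exact interval 13.4 to 28.96%), 0 of 98 for Halo-Sox2 and 124 of 127 for endogenous Sox2 (97.6%, 93.2 to 99.5%). The exact upper bound was 21.8% for Halo-Sox2M, above the Halo-Sox2D share, and 3.69% for Halo-Sox2. Summed over the 3 regions, the shares were 0.994% for Halo-Sox2M, 0.860% for Halo-Sox2D, 1.78% for Halo-Sox2 and 1.78% for endogenous Sox2. Halo-Sox2 and endogenous Sox2 thus reached the same total share through different sequence. The unplaced sequence with most peaks in the series held 274 Halo-Sox2M peaks (16.0% of the list), 201 Halo-Sox2D peaks (1.45%), 247 Halo-Sox2 peaks (3.77%) and 317 endogenous Sox2 peaks (4.43%). Endogenous Sox2 had the highest number there, as in the 45S rRNA bin, and Halo-Sox2M the highest share.

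On mitochondrial DNA the peaks of the resin libraries were spread over the molecule (RefSeq annotation of GRCm38.p6, with positions counted from the first base of TrnF). The table lists 37 genes up to base 15422, of which 2 encode rRNA, 13 proteins and 22 tRNAs. The stretch beyond it is called the control region here, and its length was taken up to the last peak of any library, at base 16191. A peak centre lay in 9 of the 37 genes for Halo-Sox2M, in 16 for Halo-Sox2D, in 21 for Halo-Sox2 and in 1 for endogenous Sox2. Over these 16191 bases the density was 0.926 peaks per kb for Halo-Sox2M, 5.56 for Halo-Sox2D, 6.05 for Halo-Sox2 and 0.185 for endogenous Sox2.

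**Figure D2:**
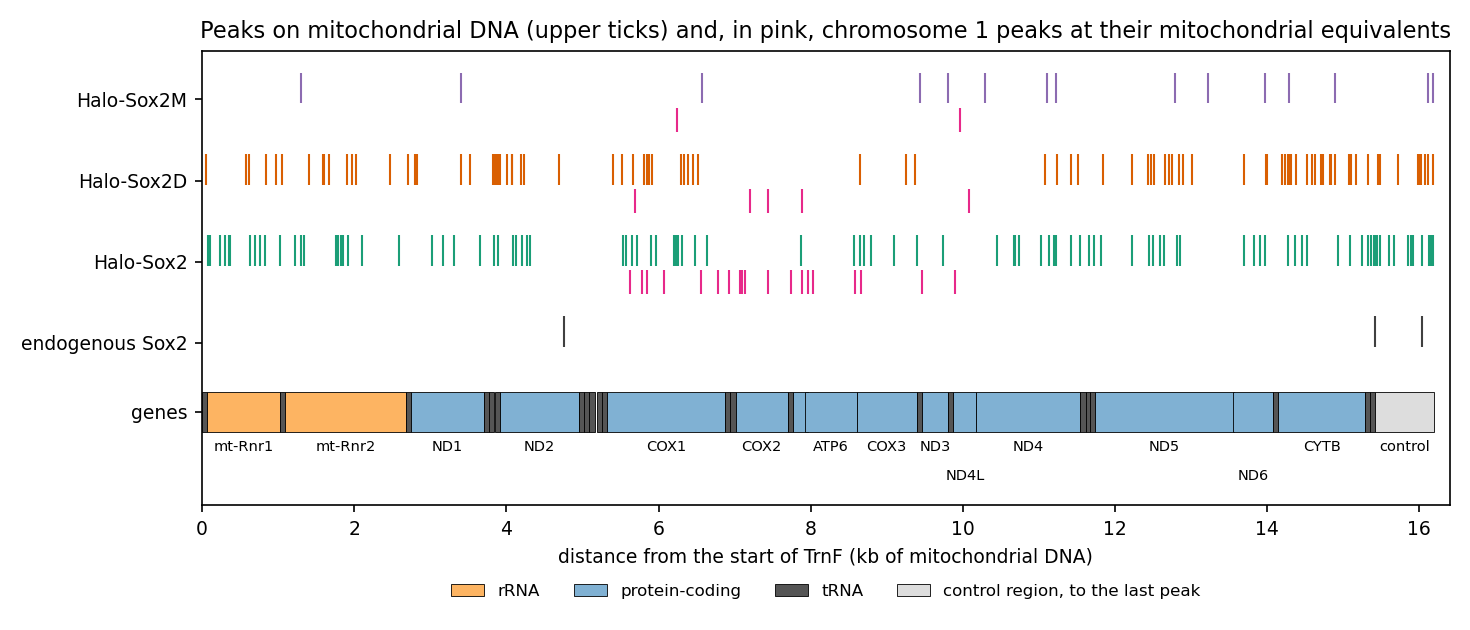
Position of every mitochondrial peak (upper ticks, x axis in kb from the start of TrnF) in each library, above the annotated genes. Pink ticks are the chromosome 1 peaks, drawn between bases 5616 and 10082 as if the copy ran in the same direction as the mitochondrial map. The copy appears to be inverted, so the pink ticks do not show the true mitochondrial equivalents. Mitochondrial peaks are dense in COX1 and sparse from there to base 10082, with 0 in COX2.

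The control region was the densest class of sequence in every library. Halo-Sox2M had 2 peaks there (2.60 per kb), Halo-Sox2D had 9 (11.7 per kb), Halo-Sox2 had 11 (14.3 per kb) and endogenous Sox2 had 2 (2.60 per kb). It covered 4.75% of the bases up to the last peak and held 13.3% of the Halo-Sox2M peaks (Wilson interval 3.74 to 37.9%), 9 of the 90 Halo-Sox2D peaks (5.35 to 17.9%) and 11.2% of the Halo-Sox2 peaks (6.38 to 18.99%). The intervals of Halo-Sox2D and Halo-Sox2 lay above its share of the length, and that of Halo-Sox2M included it. When peaks with centres within 50 bp were joined into 1 place, the control region held 5 of 59 Halo-Sox2D places (3.67 to 18.4%) and 5 of 72 Halo-Sox2 places (6.94%, 3.003 to 15.2%), and both intervals then included the share of the length. The molecule goes on beyond the last peak, so the true share of length is somewhat larger and the true densities lower. Of the 3 endogenous Sox2 peaks, 2 lay here, at bases 15417 to 15430, reaching into TrnP, and 16037 to 16039. The other endogenous peak lay in ND2, at 4747 to 4765.

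The rRNA genes were mt-Rnr1, which encodes the 12S rRNA of the small mitochondrial ribosomal subunit, and mt-Rnr2, which encodes the 16S rRNA of the large one. At mt-Rnr1 (bases 70 to 1024) there were 0 peaks of Halo-Sox2M, 4 of Halo-Sox2D (exact Poisson interval 1.09 to 10.2), 11 of Halo-Sox2 (5.49 to 19.7) and 0 of endogenous Sox2. At mt-Rnr2 (1094 to 2675) there were 1 of Halo-Sox2M, 8 of Halo-Sox2D, 10 of Halo-Sox2 and 0 of endogenous Sox2. The rRNA class covered 15.7% of the bases and held 6.67% of the Halo-Sox2M peaks (Wilson interval 1.19 to 29.8%), 13.3% of the Halo-Sox2D peaks (7.80 to 21.9%) and 21.4% of the Halo-Sox2 peaks (14.5 to 30.5%). All 3 intervals included the share of the length, and those of Halo-Sox2D and Halo-Sox2 overlapped.

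The 13 protein-coding genes covered 70.03% of the bases and held 11 of 15 Halo-Sox2M peaks (73.3%, 48.05 to 89.1%), 61 of 90 Halo-Sox2D peaks (67.8%, 57.6 to 76.5%) and 56 of 98 Halo-Sox2 peaks (57.1%, 47.3 to 66.5%). The Halo-Sox2 interval ended below the share of the length, but with centres within 50 bp joined it was 50.95 to 72.8% (45 of 72 places) and included it. Of the complex I genes, whose products are subunits of NADH dehydrogenase, ND1 had 1 Halo-Sox2M peak, 4 Halo-Sox2D peaks and 4 Halo-Sox2 peaks. At ND2 there were 0 Halo-Sox2M, 7 Halo-Sox2D, 5 Halo-Sox2 and 1 endogenous Sox2 peaks. ND4 had 3 Halo-Sox2M, 4 Halo-Sox2D and 9 Halo-Sox2 peaks, and ND5, the longest gene of the molecule with 1824 bp, had 2 Halo-Sox2M, 11 Halo-Sox2D and 8 Halo-Sox2 peaks. At ND6 the numbers were 1 Halo-Sox2M, 3 Halo-Sox2D and 4 Halo-Sox2 peaks. ND3 had 1 peak each of Halo-Sox2M and Halo-Sox2, and ND4L had none in any list. Where endogenous Sox2 is not named, its list had no peak in the gene.

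CYTB, which encodes cytochrome b of complex III, had the most mitochondrial peaks of any gene over the 4 lists, 26 in all. There were 2 peaks of Halo-Sox2M, 17 of Halo-Sox2D (exact Poisson interval 9.90 to 27.2) and 7 of Halo-Sox2 (2.81 to 14.4), and 0 of endogenous Sox2. Per kb of the gene (bases 14145 to 15288) this was 14.9 for Halo-Sox2D, against 6.12 for Halo-Sox2. CYTB was the densest protein-coding gene in the Halo-Sox2D list, while in the Halo-Sox2 list that place was held by COX1, with 7.77 peaks per kb. The intervals of the Halo-Sox2D and Halo-Sox2 numbers at CYTB overlapped. Many of the Halo-Sox2D peaks there were close neighbours. With centres within 50 bp joined over all libraries, 6 of them fell in 1 place, at 14192 to 14382. Another 3 fell in the place at 14823 to 14932. Halo-Sox2 had 2 peaks and 1 peak at these places. The densities per kb count such neighbours singly, and joined densities were not computed by gene. In windows of 1000 bp, bases 14001 to 15000 held 14 Halo-Sox2D peaks, the highest number of any window in that list, and 5 Halo-Sox2 peaks. The highest Halo-Sox2 number was 13, in bases 15001 to 16000, where Halo-Sox2D had 9.

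**Figure D3:**
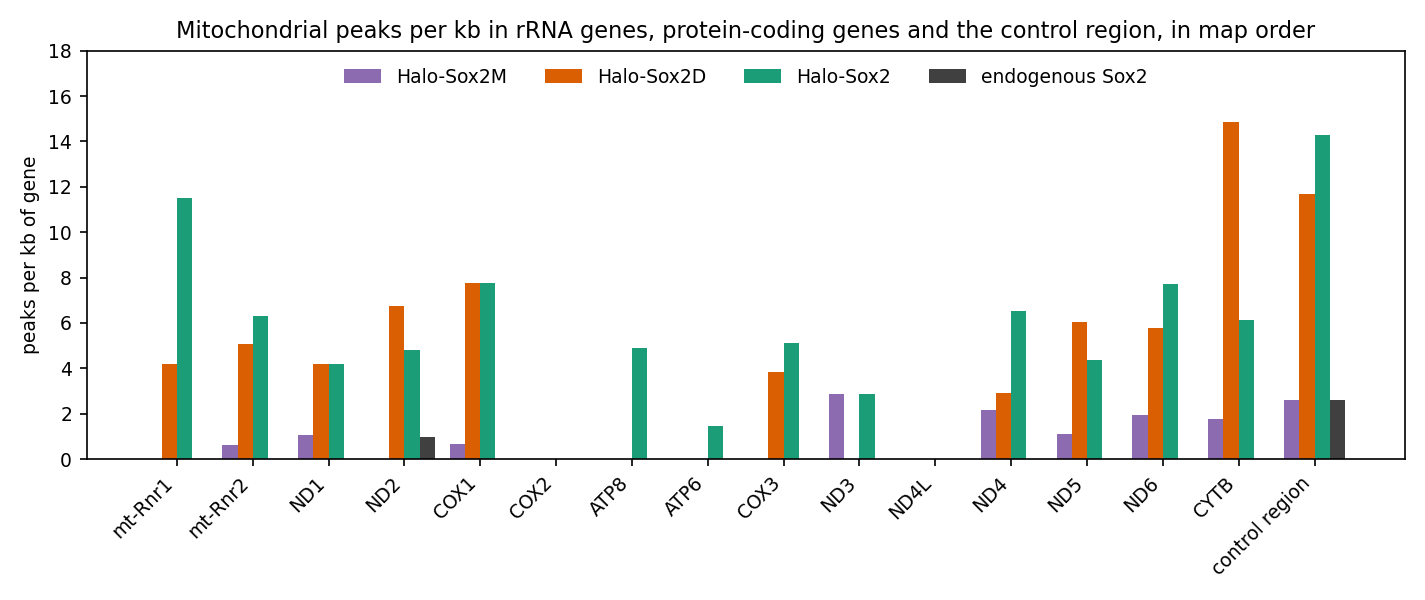
Peaks per kb (y axis) in each mitochondrial rRNA gene, protein-coding gene and the control region (x axis, in map order) for the 4 libraries. Halo-Sox2D reaches 14.9 per kb in CYTB, Halo-Sox2 reaches 14.3 per kb in the control region and 11.5 in mt-Rnr1, and COX2 and ND4L have no bar. Closely spaced peaks are counted singly.

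Among the cytochrome c oxidase genes of complex IV, COX1 had 1 Halo-Sox2M peak, 12 Halo-Sox2D peaks and 12 Halo-Sox2 peaks. COX3 had 3 Halo-Sox2D and 4 Halo-Sox2 peaks, and COX2 had 0 in every list. The ATP synthase genes ATP8 and ATP6 had 1 Halo-Sox2 peak each and no other. These genes differ in length. Per kb, Halo-Sox2 had 7.77 peaks in COX1, 5.10 in COX3 and 0 in COX2, and Halo-Sox2D had 7.77, 3.83 and 0. The exact Poisson interval of the COX2 number (0 to 3.69) overlapped that of the COX3 number in both lists. COX2, ATP8 and ATP6, with few or no peaks, lie next to each other on the map. The longest stretch without a peak of any library ran over 1227 bp from base 6644 to 7870. It took in the whole of COX2, at bases 7013 to 7696. For Halo-Sox2D alone the longest stretch without a peak was 2109 bp, from 6532 to 8640.

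The tRNA genes punctuate the molecule between the longer genes. A peak centre lay in 1 of the 22 for Halo-Sox2M, in 6 for Halo-Sox2D, in 8 for Halo-Sox2 and in 0 for endogenous Sox2. TrnM (methionine) had 3 Halo-Sox2D peaks and 1 Halo-Sox2 peak, and TrnP (proline) had 3 Halo-Sox2 peaks. TrnG (glycine) had 1 peak each of Halo-Sox2M and Halo-Sox2, while TrnQ (glutamine) and TrnT (threonine) had 1 each of Halo-Sox2D and Halo-Sox2. Together the tRNA genes covered 9.20% of the bases and held 8.89% of the Halo-Sox2D peaks (Wilson interval 4.57 to 16.6%) and 10.2% of the Halo-Sox2 peaks (5.64 to 17.8%). These shares lay close to the share of the length, with intervals that included it. No peak centre fell in the 57 bases between genes.

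Part of mitochondrial DNA has a copy on chromosome 1. The pseudogene Gm10925 lies at 24613971 to 24614651 of chromosome 1, and the table gives mt-Atp6 as its synonym. It has the 681 bp length of mitochondrial ATP6 (bases 7927 to 8607). The pseudogene Gm10222 (24612404 to 24612700) has the 297 bp length of ND4L (bases 9877 to 10173). ATP6 precedes ND4L on the mitochondrial map, but Gm10222 precedes Gm10925 on chromosome 1, so the copy appears to be inverted. The pairing of Gm10222 with ND4L rests on its length, and gaps in the copy could not be tested without the sequence. Of the 27 peaks in the chromosome 1 bin, 26 lay between 24611660 and 24616126, within 4467 bp of the 100 kb. The remaining peak, of Halo-Sox2D, lay at 24692185 to 24692191 inside Lmbrd1, a gene for a lysosomal membrane protein, away from the mitochondrial-like copy. The adjoining 100 kb on either side held no peak of any library.

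Of the 19 Halo-Sox2 peaks in the copy, Gm10925 held 3 and Gm10222 held 1. The 5 Halo-Sox2D peaks lay outside both pseudogenes. So did both Halo-Sox2M peaks, at 24612278 to 24612284 and 24615997 to 24616006. Peaks of the copy are not assigned to mitochondrial genes here, because equivalents were computed only for a copy in the same direction as the mitochondrial map.

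Bases 5616 to 10082 are where the chromosome 1 peaks would fall if the copy ran in the same direction as the mitochondrial map. Since the copy appears to be inverted, these 4467 bp are not the exact bases that it matches. They are described here only as a stretch of the map. In this stretch Halo-Sox2D had 2.91 mitochondrial peaks per kb, against 6.57 per kb on the rest of the molecule. Halo-Sox2 had 4.03 per kb there, against 6.82 elsewhere, and Halo-Sox2M 0.672 per kb there, against 1.02 elsewhere. The stretch made up 27.6% of the bases and held 14.4% of the Halo-Sox2D peaks (Wilson interval 8.64 to 23.2%), 18.4% of the Halo-Sox2 peaks (11.95 to 27.2%) and 3 of the 15 Halo-Sox2M peaks (7.05 to 45.2%). For Halo-Sox2D and Halo-Sox2 the low density lay beyond COX1. In the COX1 part (bases 5616 to 6872) Halo-Sox2D and Halo-Sox2 had 10 peaks each, or 7.96 per kb, which is above their density elsewhere. Beyond COX1 (bases 6873 to 10082) Halo-Sox2D had 3 peaks (0.935 per kb) and Halo-Sox2 had 8 (2.49 per kb). Halo-Sox2M had 1 peak in the COX1 part and 2 beyond it. The chromosome 1 peaks are not divided between these parts or added to their densities, because they were placed only for a copy in the same direction. Densities over the bases that an inverted copy would match were not computed, so whether those bases hold few mitochondrial peaks was not tested. The bounds of the stretch were read from the peaks themselves. How reads that match both places were assigned is not given in the sources used here, and its part in these densities was not tested. Whether chromosome 1 peaks lie at the equivalents of mitochondrial peaks of their own library was not computed for an inverted copy.

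In the 45S rRNA bin all 147 peaks lay within 5726 bp of chromosome 17, from 39843030 to 39848755, and the rest of the 100 kb held none. The table names 2 genes over this stretch. Rn18s-rs5 (39846354 to 39848202), a pseudogene of the 18S rRNA, spans 1849 bp, and AY036118, annotated as a long noncoding RNA, starts at 39848112 and runs on to 39898385. The 3324 bp below Rn18s-rs5 carry no annotated gene. The table does not divide the stretch into spacers and mature rRNAs, so the label 45S could be checked only through Rn18s-rs5, and peaks are given by their place relative to it. The adjoining 100 kb held 1 peak, of Halo-Sox2, on the upper side.

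Endogenous Sox2 peaks were packed evenly over nearly all of the stretch, with 21.7 peaks per kb and a median of 34.5 bp between neighbouring centres. Below Rn18s-rs5 there were 77 of the 124 peaks (62.1%, Wilson interval 53.3 to 70.2%) on 58.05% of the length. In Rn18s-rs5 outside its overlap with AY036118 there were 31 (25.0%, 18.2 to 33.3%) on 30.7% of the length, in the overlap 3, and in AY036118 above it 13 (10.5%, 6.23 to 17.1%) on 9.66%. Each interval included the share of the length, also in the overlap (0.826 to 6.87%, on 1.59% of the length). In windows of 500 bp the list held 9 to 13 peaks, except for 3 peaks in the window 39847030 to 39847529 and 7 in the shorter last one. The low window lies inside Rn18s-rs5, where the longest stretch without a peak ran over 329 bp from 39847028 to 39847356.

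Halo-Sox2D peaks were sparser, with 4.02 per kb and a median of 201 bp between neighbours. Below Rn18s-rs5 there were 10 of 23 (43.5%, 25.6 to 63.2%), in Rn18s-rs5 alone 11 (47.8%, 29.2 to 67.0%), in the overlap 0 and above it 2. The window from 39847030 to 39847529, the lowest of endogenous Sox2, held 4 Halo-Sox2D peaks, the highest number of any window in that list. In that window alone the Halo-Sox2D number exceeded that of endogenous Sox2, 4 against 3. The Wilson intervals of the Rn18s-rs5 shares of Halo-Sox2D and endogenous Sox2 overlapped.

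**Figure D4:**
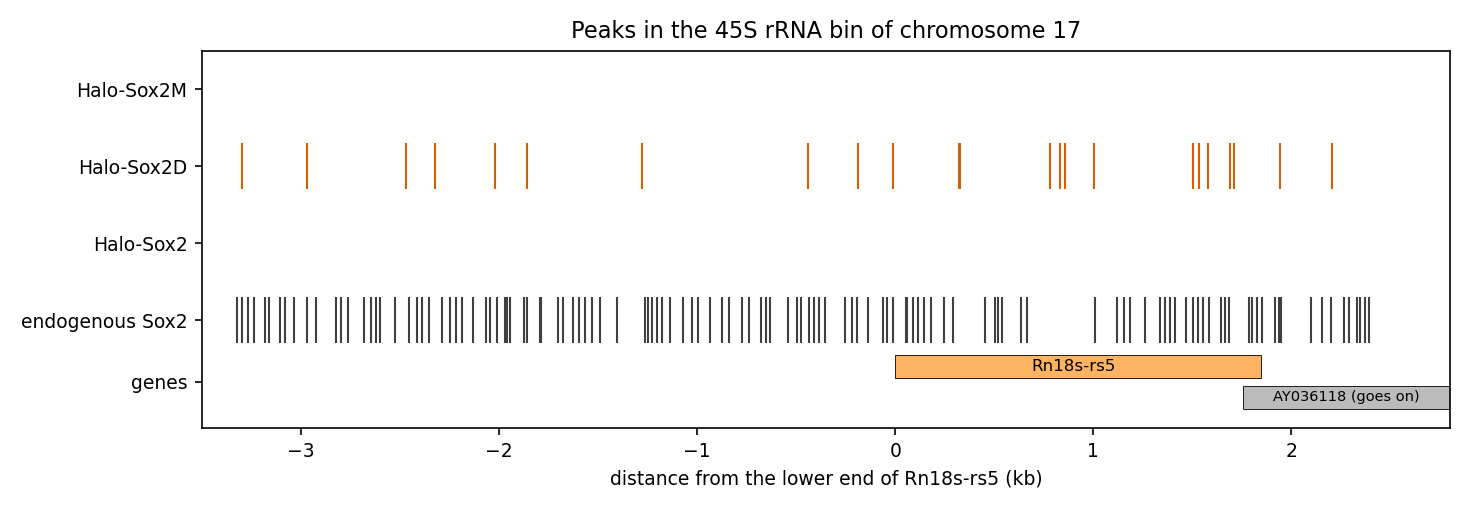
Every peak in the 45S rRNA bin (x axis in kb from the lower end of Rn18s-rs5) by library, above the annotated genes. The 124 endogenous Sox2 peaks fill the stretch but for a gap of 329 bp inside Rn18s-rs5, the 23 Halo-Sox2D peaks are scattered over the same span, and Halo-Sox2M and Halo-Sox2 have none.

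Whether libraries had peaks at the same places within these regions was read from overlaps of at least 1 bp. Over the whole lists, 4.58% of Halo-Sox2D peaks were overlapped by endogenous Sox2. In the 45S rRNA bin 14 of 23 were (60.9%, Wilson interval 40.8 to 77.8%), where peaks as wide, placed at every base of the stretch in turn, would touch an endogenous Sox2 peak at 42.9% of the placements. The median distance from a Halo-Sox2D centre to the nearest endogenous Sox2 centre was 7 bp. In the other direction 15 of 124 endogenous Sox2 peaks were overlapped by Halo-Sox2D (12.1%, 7.47 to 19.0%), against 9.02% over the whole list and 8.22% of placements. Both intervals included the share of placements that would touch the other list. At a reciprocal overlap of 50% the numbers were 7 of 23 Halo-Sox2D peaks and 7 of 124 endogenous Sox2 peaks.

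On mitochondrial DNA, 16 of 90 Halo-Sox2D peaks were overlapped by Halo-Sox2 (17.8%, 11.2 to 26.9%), against 3.38% over the Halo-Sox2D list and 11.2% of placements on the 16191 bases. Likewise 16 of 98 Halo-Sox2 peaks were overlapped by Halo-Sox2D (16.3%, 10.3 to 24.9%), against 7.12% over the Halo-Sox2 list and 10.2% of placements. In both directions the lower bound about equalled the share of placements. The Halo-Sox2M peaks were overlapped by Halo-Sox2D in 6 of 15 cases (Wilson interval 19.8 to 64.2%), against 11.0% over the list and 10.99% of placements, and by Halo-Sox2 in 4 of 15 (26.7%, 10.9 to 51.95%), against 16.2% over the list and 11.7% of placements. The interval for overlap by Halo-Sox2 included both comparison shares, and that for overlap by Halo-Sox2D lay above both, on 6 peaks. At a reciprocal overlap of 50% it was 2 of 15 peaks. Because the lists are sparse over most of the genome, the shares over whole lists are no measure of the overlap that such dense stretches would give. With 3 endogenous Sox2 peaks on the whole molecule, few overlaps with them were possible. Of the Halo-Sox2 peaks, 1 of 98 was overlapped by endogenous Sox2 (1.02%), against 9.27% over the list and 0.380% of placements. This was the peak at 15421 to 15423 in TrnP. In the chromosome 1 bin 1 of 6 Halo-Sox2D peaks was overlapped by a Halo-Sox2 peak, at 24613921 to 24613936.

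**Figure D5:**
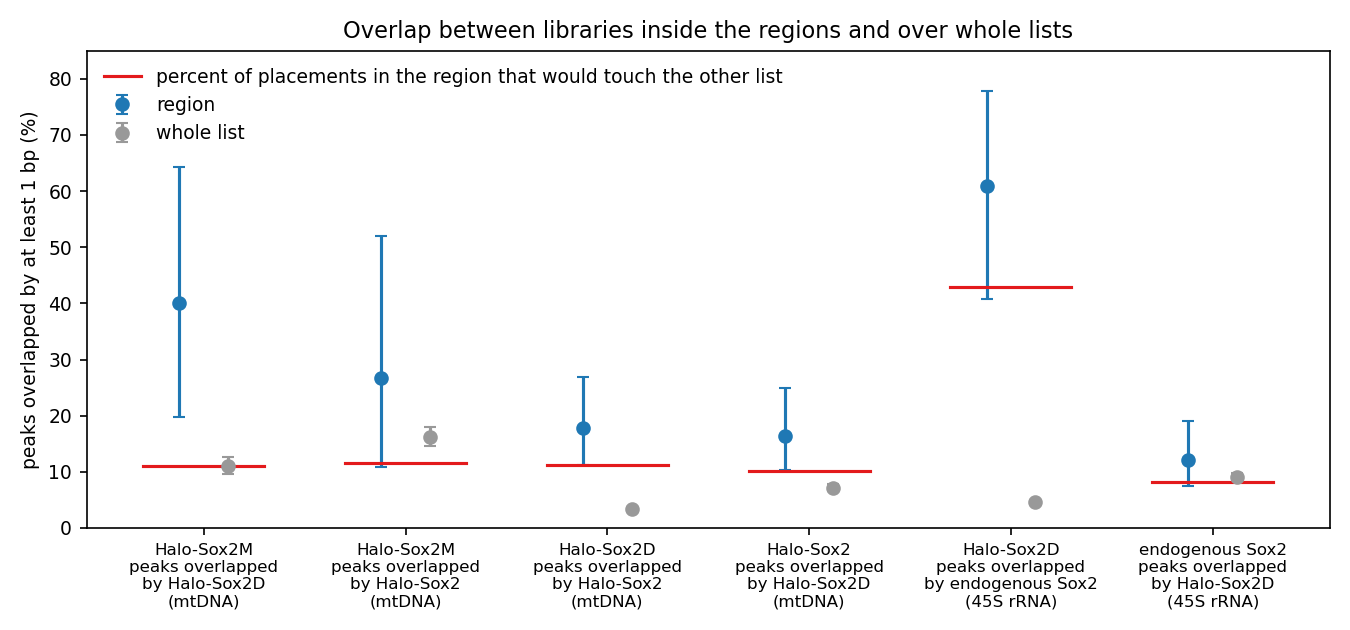
Percent of peaks overlapped by at least 1 bp (y axis) for 6 ordered pairs of libraries (x axis), in the region (blue) and over the whole list (grey), with 95% Wilson intervals. Red lines give the percent of placements at which peaks of the same widths would touch the other list; in the 45S rRNA bin the line at 42.9% lies inside the interval of 40.8 to 77.8%.

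When mitochondrial peaks of all libraries were joined wherever neighbouring centres lay within 50 bp, they formed 92 places. A single library accounted for 58 places, 25 had peaks from 2 libraries, 8 from 3 and 1 from all 4. Positions within 50 bp of a centre made up 44.6% of the 16191 bases for Halo-Sox2 and 38.3% for Halo-Sox2D. Libraries can therefore be joined by density alone, and a place with several libraries need not be a shared position. The place with all 4 libraries lay in the control region, at bases 15975 to 16191, with 2 Halo-Sox2M, 6 Halo-Sox2D, 4 Halo-Sox2 and 1 endogenous Sox2 peaks. Next came bases 15322 to 15492, across TrnT, TrnP and the start of the control region, with 3 Halo-Sox2D, 6 Halo-Sox2 and 1 endogenous Sox2 peaks and none of Halo-Sox2M. CYTB held a pair of places of all 3 resin libraries. At 14192 to 14382 there were 1 Halo-Sox2M, 6 Halo-Sox2D and 2 Halo-Sox2 peaks, and at 14823 to 14932 there were 1 Halo-Sox2M, 3 Halo-Sox2D and 1 Halo-Sox2. Others lay in ND5 (12712 to 12895, with 1 Halo-Sox2M, 4 Halo-Sox2D and 2 Halo-Sox2 peaks), ND4 (11189 to 11245), ND6 (13959 to 14004) and across COX3 and TrnG (9364 to 9445).

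In the 45S rRNA bin 41 places resulted, 26 with endogenous Sox2 alone or Halo-Sox2D alone and 15 with both. Positions within 50 bp of an endogenous Sox2 centre made up 92.7% of the stretch, so joining is likely at any position there. The place with most peaks lay below Rn18s-rs5, at 39843878 to 39844170, with 2 Halo-Sox2D and 8 endogenous Sox2 peaks. The others named by the same rule were 39845804 to 39846002 (1 Halo-Sox2D and 7 endogenous Sox2 peaks), 39847813 to 39847943 inside Rn18s-rs5 (3 Halo-Sox2D and 5 endogenous Sox2) and 39844283 to 39844414 (1 Halo-Sox2D and 6 endogenous Sox2). In the chromosome 1 copy the places with 2 libraries were 24613482 to 24613488 and 24613921 to 24613936, each with 1 Halo-Sox2D and 1 Halo-Sox2 peak. They were followed by 24613113 to 24613174, with 3 Halo-Sox2 peaks, and 24611660 to 24611674, with 1 Halo-Sox2 peak.

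The peaks of these regions were about as narrow as the others of their lists. On mitochondrial DNA the median width was 10 bp for Halo-Sox2M, 10 bp for Halo-Sox2D, 9 bp for Halo-Sox2 and 14 bp for the 3 endogenous Sox2 peaks, against 11 bp for the rest of each list. In the 45S rRNA bin it was 12 bp for Halo-Sox2D and 9.5 bp for endogenous Sox2, and in the chromosome 1 bin 6 bp for the 19 Halo-Sox2 peaks. Neighbouring mitochondrial centres lay a median of 71.5 bp apart for Halo-Sox2D and 87.5 bp for Halo-Sox2, against 672.2 bp for Halo-Sox2M. Some peaks shared their end with a neighbour of the same list and lay inside it. There were 2 such on mitochondrial DNA for Halo-Sox2D and 2 for Halo-Sox2, and in the 45S rRNA bin 1 for Halo-Sox2D and 4 for endogenous Sox2.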

How the data were processed

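The data were 4 ChIP-exo peak lists, 1 library per group, grouped from the labels. Per the labels' protocols, complexes from sonicated nuclei were isolated with antibody or HaloLink resin. Per the submitters' processing notes, Bowtie2 and mm10 were used. Which peak caller and threshold were used, and how reads matching several places were handled, is not given in the sources used here. Deposited lists hold 3 columns, chromosome, start and end, with no score, so no stricter threshold could be tried. Starts are printed counted from 1.

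Peaks were assigned by their centre to regions and to genes of a RefSeq table of GRCm38.p6, whose chromosomes and mitochondrial DNA share mm10 coordinates. A centre in overlapping genes counted for each gene, and for 1 class. Overlap needed at least 1 bp, and bedtools 2.31.1 gave the same numbers. The share of placements, added after the data were seen, is the share of start positions in a stretch at which peaks of the same widths would touch the other list. Wilson and exact intervals (95%, scipy 1.17.1; Python 3.11.15, pandas 2.3.3) cover counting error only. The overlap and assignment code recovered all planted peaks in tests on simulated data. The alternatives were merged or joined peaks (within 50 bp), any overlap, narrower bins, other overlap criteria, and shares outside 100 kb bins with 15 or more peaks. No sequence of these regions was used here.

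The genes named were both rRNA genes, all protein-coding genes, the control region, the 5 tRNA genes with most peaks, and genes of the bins with a peak. Places were ranked by libraries, then peaks, naming up to 8 on mitochondrial DNA and 4 per bin. The members, lists and rules were chosen with earlier results of these data known.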

Additional observations from a re-analysis of the deposited data

How the results depend on the processing

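Of 116 alternative values, 99 stayed within 1.5 times the reported number or within its counting interval and 17 were counted as moved. In every alternative for peak numbers and shares, all resin libraries stayed above endogenous Sox2 on mitochondrial DNA and below it in the 45S rRNA bin. The regions were chosen by these same numbers, so the unchanged order is a description and no independent evidence for it. Merging touching peaks, counting any overlap with a region or gene class, and adding the mitochondrial-like bin to the mitochondrial peaks moved none. Joining centres within 50 bp lowered the mitochondrial number of Halo-Sox2D to 59, the 45S rRNA number of endogenous Sox2 to 41, and its rRNA share of rRNA-bin and mitochondrial peaks to 93.18%. That share was counted as moved although it lay within 1.5 times of 97.64%. It was just below the lower bound of 93.25%. Restricting the bins to the span of annotated genes, which leaves out part of each stretch, gave 0 Halo-Sox2M, 3 Halo-Sox2D and 12 Halo-Sox2 peaks on chromosome 1, and 13 Halo-Sox2D and 47 endogenous Sox2 peaks on chromosome 17. Against peaks outside dense bins, the Halo-Sox2M mitochondrial share was 1.57%, beside 1.68% for Halo-Sox2.

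Overlap depended most on the criterion. Over all 3 regions, the share of Halo-Sox2 peaks overlapped by endogenous Sox2 was 0.855% and became 0% at a reciprocal overlap of 50%. Over the whole Halo-Sox2 list the reciprocal share was 4.71%. That of Halo-Sox2M peaks overlapped by Halo-Sox2 was 23.5%, 5.88% at reciprocal overlap and 58.8% for centres within 50 bp. Over the whole Halo-Sox2M list, reciprocal overlap gave 8.01% and centres within 50 bp gave 31.85%. For Halo-Sox2D peaks overlapped by Halo-Sox2 the values in the 3 regions were 14.3%, 5.04% and 49.6%, against 1.65% (reciprocal) and 7.34% (within 50 bp) over the whole list. For Halo-Sox2D peaks overlapped by endogenous Sox2 they were 11.8%, 5.88% and 20.2%, against 2.48% (reciprocal) and 9.57% (within 50 bp) over the whole list. On mitochondrial DNA alone the overlap of at least 1 bp was 0%. Positions within 50 bp of an endogenous Sox2 centre made up 92.7% of the rRNA stretch, so the looser criterion says little there. Without scores in the lists, no stricter threshold was run. No paired analysis was possible because each group has 1 library. Depth is unknown, so a missing peak does not show missing signal.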
